A study of Mus musculus with 2 samples.

Results

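Chemokines are small secreted proteins that attract other cells, and this account follows 8 chemokine genes in single cells of a mouse tumour: Ccl1, Ccl3, Ccl4, Ccl5, Ccl24, Xcl1, Cxcl2 and Cxcl10. They were chosen by name from the 32285 genes counted, with earlier results of these data known. Counts and medians of members set beside all genes therefore describe a chosen list and are no independent test. Cells came from MB49 tumours (a transplanted bladder tumour line) that had grown for 14 days in C57BL/6J mice aged 12 to 14 weeks, with 1 library from male and 1 from female hosts. The labels give no treatment and no genetic change in either group, the tumour line is shared by both, and how many mice went into each library is not stated. With 1 library per sex, no difference between libraries can be tested, and sex, mouse, tumour and preparation cannot be told apart. A barcode is the tag of one droplet, and a UMI is a tag that marks one captured RNA molecule. Barcodes with 500 or more genes and no more than 10% of UMIs from mitochondrial genes were used: 3468 of 3658 female, 3519 of 3708 male and 6987 together. Their median depth was 9517 and 7880 UMIs.

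Barcodes were put into classes by the transcripts they held. Cd8 barcodes (4185) had at least 2 UMIs of Cd8a and Cd8b1, the chains of the CD8 co-receptor, and no UMI of Foxp3, the transcription factor of regulatory T cells. They were split by Havcr2, an inhibitory receptor known from exhausted T cells, and Tcf7, a transcription factor of progenitor and memory-like T cells. That gave 1773 Havcr2+ Tcf7-, 428 Havcr2+ Tcf7+, 1058 Havcr2- Tcf7+ and 926 Havcr2- Tcf7- barcodes. Treg barcodes (578) had a Foxp3 and no Cd8 UMI, and other Cd4 barcodes (479) a Cd4 UMI and neither of the others. MHC II barcodes (160) had at least 3 UMIs of H2-Aa, a chain of the MHC class II molecule, and 1638 kept barcodes were in no class. Although the labels describe a sort for viable cells with CD4 on the surface, the female library held 35935 Cd8a against 1859 Cd4 UMIs and the male one 29719 against 2156. Cd3e, a chain of the T cell receptor complex, was found in 96.8% of Cd8, 93.8% of Treg and 95.2% of other Cd4 barcodes. It was also found in 79.4% of MHC II barcodes, whose median depth was 40777.5 UMIs against 9709 in Cd8, 6204.5 in Treg and 5206 in other Cd4 barcodes. MHC II barcodes therefore carried T cell transcripts too, and 42 of them were also counted as Cd8, 10 as Treg and 1 as other Cd4. In all, 839 kept barcodes held both Foxp3 and at least 2 Cd8 UMIs, with a median of 35258 UMIs, and entered no T cell class. Of these, 72 were MHC II barcodes, and the rest are among those in no class. They held 34106934 of the 106364054 UMIs of all kept barcodes. Their share was 35.1% of the Ccl3, 32.7% of the Ccl4, 31.3% of the Ccl1, 29.2% of the Ccl5 and 28.9% of the Xcl1 UMIs. These molecules lie outside the T cell classes compared below. No doublet caller was run, and 16 barcode sequences occurred in both libraries.

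Chemokines act through receptors on the cells they draw in. Ccl3, Ccl4 and Ccl5 are released by activated T cells and other leukocytes, and Xcl1 is the ligand of Xcr1, a receptor of cross-presenting dendritic cells. Ccl1 is a ligand of Ccr8, which is known from regulatory T cells in tumours, and Ccl24 is an eotaxin that acts on Ccr3. Cxcl2 draws neutrophils through Cxcr2, and Cxcl10 is induced by interferon and draws T cells through Cxcr3.

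The members lie on 3 chromosomes (GRCm38, GENCODE M21 annotation), each a protein-coding gene. Ccl3 (chr11:83647844-83649355, minus strand) and Ccl4 (chr11:83662584-83664683, plus strand) are near each other, as is Ccl5 (chr11:83525778-83530518), and Ccl1 (chr11:82176657-82305690) has an annotated span far longer than theirs. Cxcl2 (chr5:90903871-90905938), Cxcl10 (chr5:92346638-92348889) and Ccl24 (chr5:135569937-135573049) are on chromosome 5, and Xcl1 (chr1:164931644-164935527) is on chromosome 1. Xcl1 and Cxcl10 each overlap an annotated gene on the opposite strand, with 51 UMIs for Gm20743 and 62 for Art3 in the kept barcodes.

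Start-site sequence in the RefSeq promoter table (GRCm38.p6) was matched for 5 of the 8 genes, and Ccl4, Ccl5 and Ccl24 were not among them. Below are the 250 bases before the RefSeq start of Ccl3, a T cell chemokine that differed between Cd8 states, and of Cxcl2 and Cxcl10, which were higher in Treg than in Cd8 barcodes. They are written 5′ to 3′ on the gene's strand, from chr11:83649379-83649628 (minus), chr5:90903649-90903898 (plus) and chr5:92348890-92349139 (minus).
Ccl3: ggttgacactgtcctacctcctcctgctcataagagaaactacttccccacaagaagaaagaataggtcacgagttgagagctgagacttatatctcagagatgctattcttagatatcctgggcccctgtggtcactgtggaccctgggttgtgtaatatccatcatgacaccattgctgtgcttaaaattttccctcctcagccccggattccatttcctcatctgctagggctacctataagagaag
Cxcl2: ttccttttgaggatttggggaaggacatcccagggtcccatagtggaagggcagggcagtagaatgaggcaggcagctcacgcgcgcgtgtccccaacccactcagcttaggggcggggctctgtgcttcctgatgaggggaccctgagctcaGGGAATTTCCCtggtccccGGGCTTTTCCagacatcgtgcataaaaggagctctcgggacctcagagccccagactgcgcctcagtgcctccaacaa
Cxcl10: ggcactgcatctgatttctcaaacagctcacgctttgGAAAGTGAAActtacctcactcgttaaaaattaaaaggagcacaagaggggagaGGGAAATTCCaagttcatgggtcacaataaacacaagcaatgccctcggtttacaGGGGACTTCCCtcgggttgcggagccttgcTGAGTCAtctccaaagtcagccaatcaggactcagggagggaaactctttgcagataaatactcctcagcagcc
The capitals mark 3 of the 6 motifs searched on both strands: the NF-kappaB motif (GGG and CC with 5 bases between), the interferon-regulated factor motif (GAAA, then 2 other bases, then GAAA again) and TGANTCA, for the AP-1 family. The NF-kappaB motif was found at 3 positions for Cxcl2 and 4 for Cxcl10, some of them the same letters read on both strands or overlapping, and at none for Ccl3. The interferon-regulated factor motif and TGANTCA each had 1 match for Cxcl10 and none for Cxcl2 or Ccl3. Of the 32851 promoters of the same length, 45.8% held the NF-kappaB motif, 2.98% the interferon-regulated factor motif and 6.75% the AP-1 motif. The short motif GGAAA, which is in 55.6% of promoters, had 2 matches for Ccl3, 2 for Cxcl2 and 3 for Cxcl10, some of them inside the capitals. TGACGTCA (1.55% of promoters) and TATAAA (12.4%) had none in these 3. A match describes the letters and is no evidence of binding.

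Together the 8 genes held 98.4% of the UMIs of all 33 chemokine ligands in the matrix, and Ccl5 alone 80.2%. Levels are given as UMIs of a gene per 1000000 UMIs of the class (CPM), which can be set against each other for 1 gene between classes but not between genes.

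**Figure D1:**
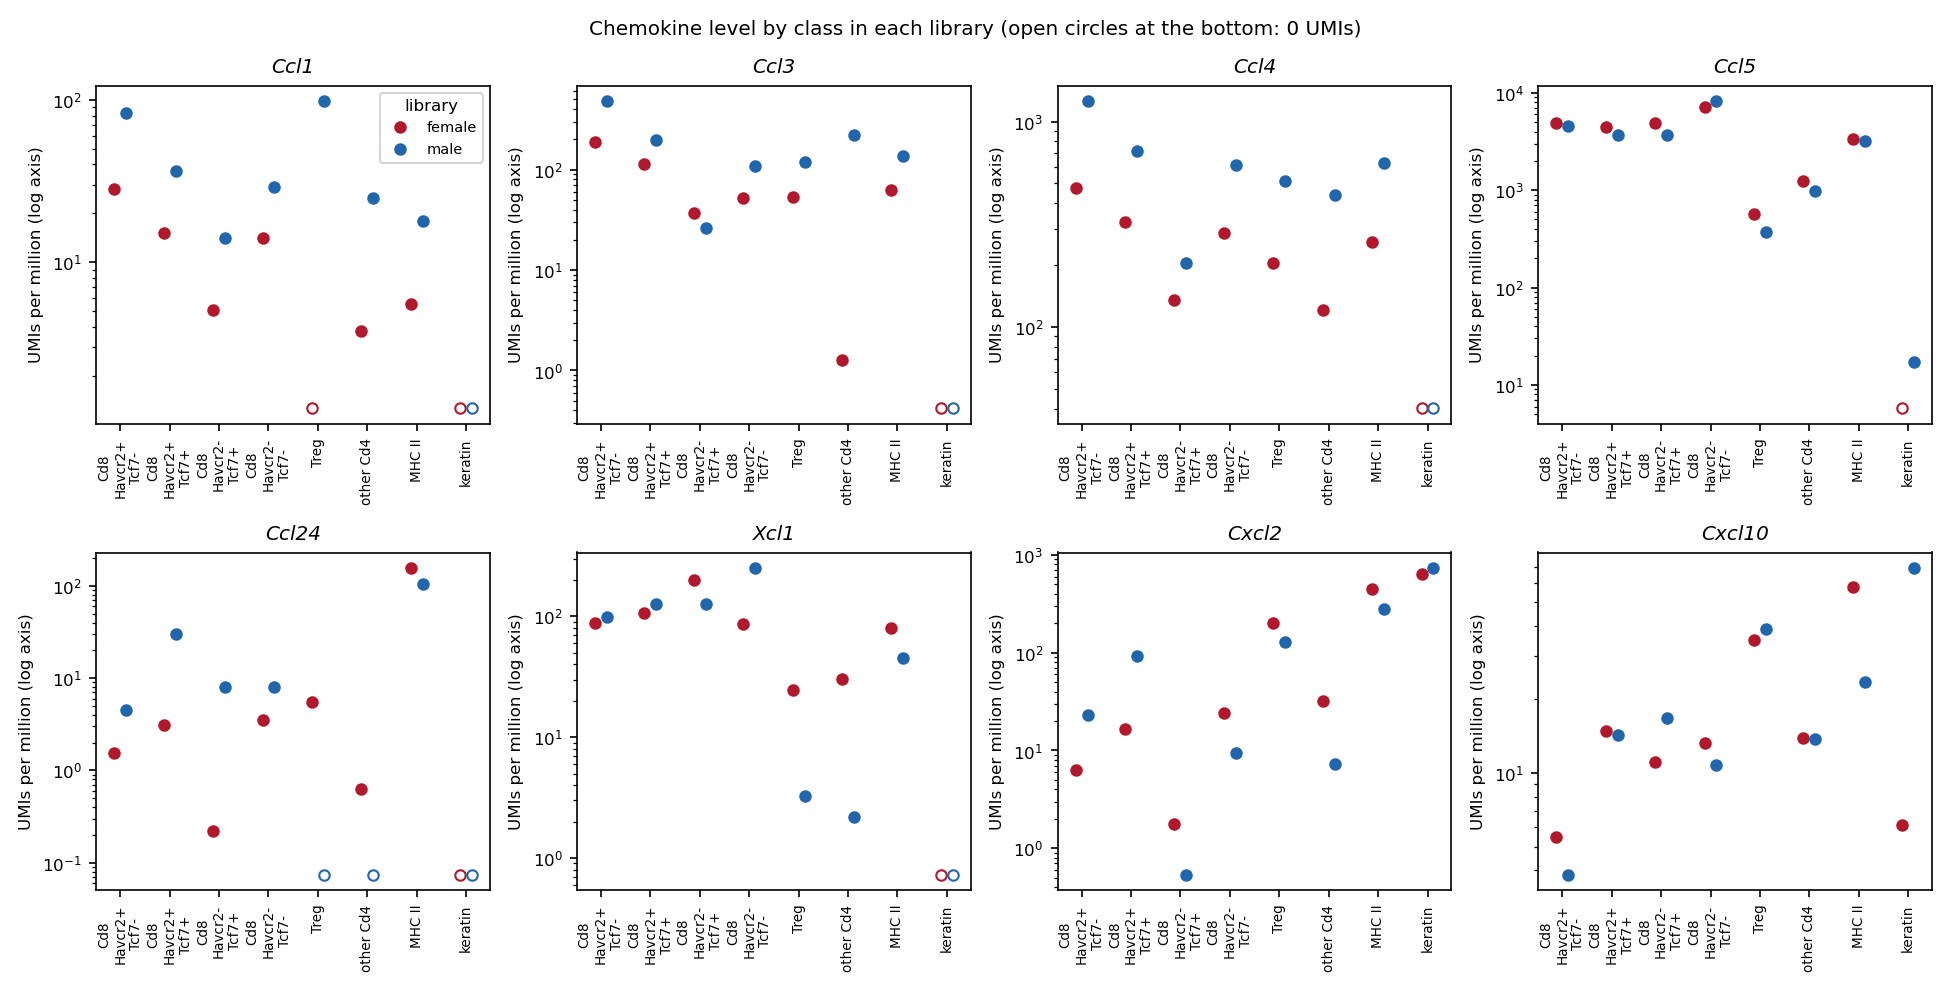
Chemokine level in CPM (log axis) in the 7 classes and in keratin barcodes, 1 panel per gene, with 1 point for each library (red female, blue male) and open circles at the bottom for 0 UMIs. Ccl5 stood between 3663 and 8161 CPM in all Cd8 classes, Ccl24 and Cxcl2 were highest in MHC II among the 7 classes, and the blue points of Ccl3 and Ccl4 lay above the red ones in all classes except Ccl3 in Havcr2- Tcf7+ Cd8 and the keratin barcodes, where neither gene had a UMI.

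Ccl5 was the chemokine of most Cd8 barcodes. It was detected in 85.6% of them (exact 95% interval 84.5 to 86.7), 88.9% of female and 81.9% of male ones, with a mean of 80.0 UMIs per positive barcode. Treg and other Cd4 barcodes held it in 34.1% (30.2 to 38.1) and 29.9% (25.8 to 34.2), with a mean of 10.3 and 23.2 UMIs. Its CPM was 5083 and 4587 in Cd8 of the female and the male library, 563 and 368 in Treg, and 1230 and 988 in other Cd4, so that the 3 classes did not overlap over libraries. Barcodes with many keratin UMIs and no Cd3e (29, median 37547 UMIs), which should lack T cell chemokines, held Ccl5 in 3 of 29 (10.3%) and at 7.66 CPM. Within Cd8, the order by CPM was Havcr2- Tcf7- (7098 and 8161 in the female and male library), Havcr2+ Tcf7- (4857 and 4542), Havcr2- Tcf7+ (4872 and 3663) and Havcr2+ Tcf7+ (4487 and 3723). Only the first of these stood clear of the next in both libraries, and the other 3 overlapped. By share of barcodes the order was another: 96.0% of Havcr2+ Tcf7+, 93.6% of Havcr2+ Tcf7-, 82.6% of Havcr2- Tcf7- and 70.8% of Havcr2- Tcf7+ barcodes had a Ccl5 UMI. Median depths differed in these classes (20551, 12768, 6401.5 and 7529 UMIs), and at an equal 2977 UMIs per barcode the shares were 88.8%, 86.9%, 82.1% and 63.6%, in the same order. Shallower barcodes were left out of these equal-depth shares, 4, 49, 149 and 19 in the 4 classes.

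Ccl4 and Ccl3 were carried by fewer Cd8 barcodes and very unevenly. Ccl4 was found in 42.7% (41.2 to 44.2) of Cd8 barcodes with a mean of 18.8 and a median of 4 UMIs, and Ccl3 in 26.5% (25.2 to 27.9) with a mean of 10.4 and a median of 3. No keratin barcode held either gene (0 of 29, for which the exact interval of the share of barcodes with a UMI reaches 11.9%). A few barcodes held most of the molecules: 82 of 4185 Cd8 barcodes had 50% of the Ccl4 UMIs, 67 had 50% of the Ccl3 UMIs, and the top barcode alone held 1733 Ccl4 UMIs. For Ccl5 it took 599 barcodes. In Treg barcodes, Ccl4 was found in 17.1% (14.1 to 20.5) and Ccl3 in 11.1% (8.63 to 13.9), and at equal depth in 13.2% and 8.64%. In other Cd4 barcodes the shares were 3.13% and 1.67%, and 1 male barcode with 461 Ccl4 UMIs and 1 with 260 Ccl3 UMIs held 57.8% and 84.7% of that class's molecules.

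**Figure D2:**
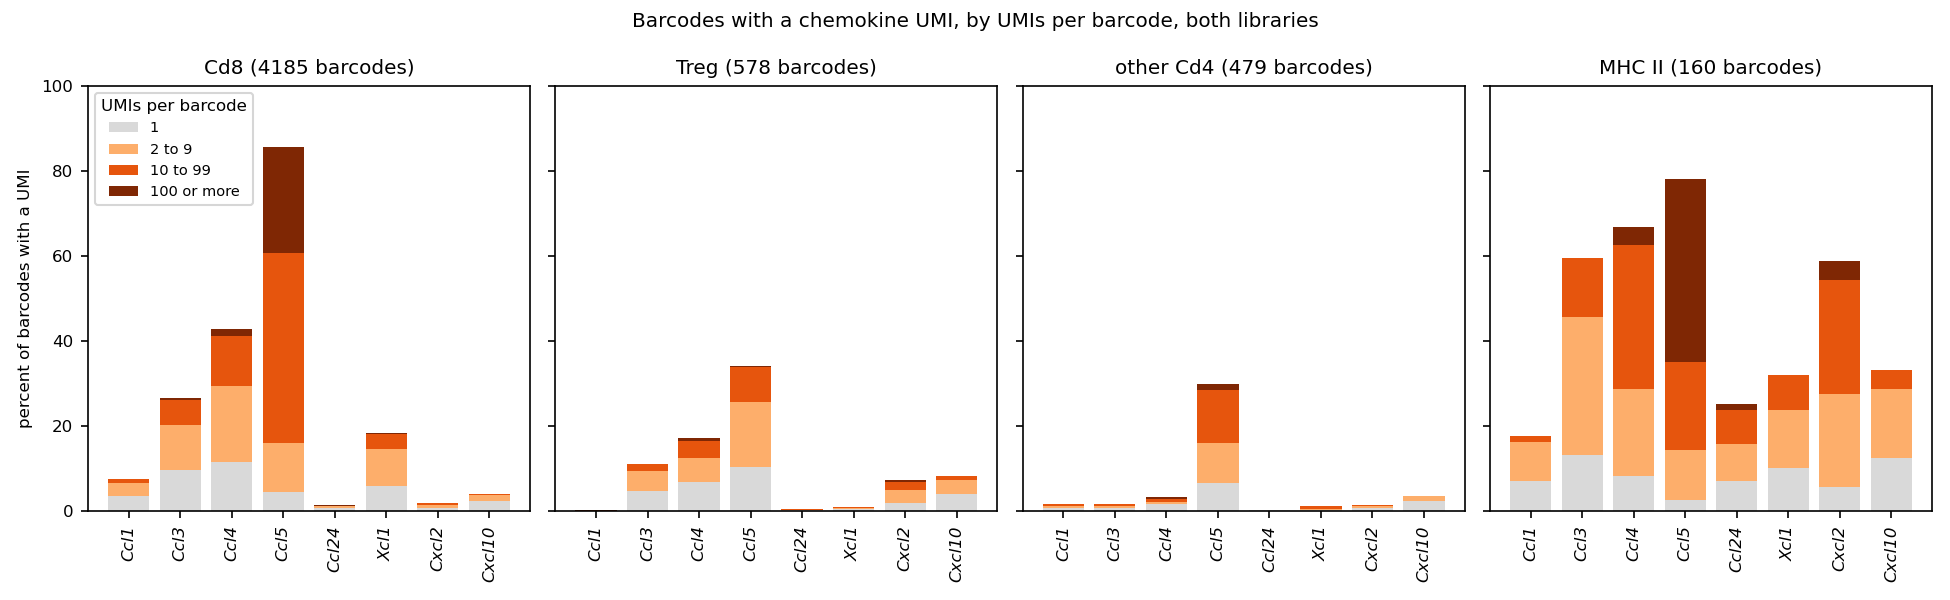
Percent of barcodes with a UMI of each chemokine in the 4 classes (both libraries), with bars stacked by the number of UMIs in the barcode. Ccl5 was found at 100 UMIs or more in 1044 Cd8 barcodes, Ccl4 in 64, Ccl3 in 19, Xcl1 in 9 and Ccl1 in 3. The MHC II barcodes were far deeper than the others.

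Both genes were higher in Cd8 barcodes with Havcr2 and without Tcf7 than in those with Tcf7 and without Havcr2, and the ratio was larger in the male library. Ccl3 stood at 190 and 478 CPM in Havcr2+ Tcf7- barcodes of the female and male library and at 37.0 and 26.1 in Havcr2- Tcf7+ barcodes, which is 5.14-fold (log2 2.36, counting interval 2.14 to 2.60) and 18.3-fold (log2 4.20, 3.96 to 4.44). Ccl4 stood at 473 and 1254 against 135 and 205 CPM, 3.50-fold and 6.13-fold. Ccl1 followed with 28.3 and 82.3 against 5.10 and 14.1 CPM, 5.54-fold and 5.82-fold. The groups did not overlap over libraries for any of the 3. A class difference was called where it passed 2-fold in the same direction in both libraries with each exact counting interval off 1, and it was asked of genes measured at 10 CPM or more on 1 side with at least 20 UMIs. By that rule 5 of the 7 measured members were called (Ccl24 was not measured), beside 7.07% of 7849 genes, 4 of them higher (3.64% of genes) and 1 lower (3.43%) in Havcr2+ Tcf7- barcodes. The median log2 ratio of all 7 measured members was 2.16, against 0.09 over all genes measured. The others called were Cxcl2, at 6.33 and 23.0 against 1.77 and 0.54 CPM, and Cxcl10, the only one lower, at 5.46 and 3.83 against 11.1 and 16.8 CPM and called in 7 of 9 settings. The Cxcl2 values in Havcr2- Tcf7+ barcodes came from 8 and 3 UMIs, and without barcodes that held a keratin, Lyz2 or MHC II transcript the pooled ratio dropped from a log2 of 3.55 to 0.44 and was no longer called. Ccl3, Ccl4 and Ccl1 were called under all 9 settings, the main one included, with a pooled log2 of 3.26 to 3.82, 2.14 to 2.64 and 2.19 to 2.96. Ccl5 was 4857 and 4542 against 4872 and 3663 CPM and was not called.

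By share of barcodes the same split held. Ccl3 was found in 42.2% of Havcr2+ Tcf7-, 42.3% of Havcr2+ Tcf7+, 13.7% of Havcr2- Tcf7- and 5.10% of Havcr2- Tcf7+ barcodes, and at equal depth in 22.4%, 16.8%, 9.10% and 3.02%. Ccl4 was found in 55.5%, 61.9%, 34.3% and 20.8%, and at equal depth in 34.6%, 33.6%, 26.3% and 14.1%. Of the 5 exhaustion-associated genes listed for this account, 4 were higher in the Havcr2+ Tcf7- barcodes (Havcr2, Pdcd1, Lag3 and Entpd1), and Havcr2 itself defined the class. Of 11 measured genes of T cell receptor activation, 3 were higher (Irf8, Tnfrsf9 and Ifng) and 2 lower (Cd69 and Myc). Of 4 antigen presentation genes, which mark other cell types, 3 were higher (H2-Aa, H2-Ab1 and H2-Eb1), with a summed level of 66.6 and 175 CPM in Havcr2+ Tcf7- and 82.7 and 116 in Havcr2- Tcf7+ barcodes of the female and male library, and their part in the result was not tested.

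Xcl1 had a different order among Cd8 states. It was found in 18.2% (17.1 to 19.4) of Cd8 barcodes, with a mean of 8.89 UMIs in positive ones, and 53 barcodes held 50% of its molecules. Its CPM in the female and the male library was 200 and 127 in Havcr2- Tcf7+, 85.7 and 252 in Havcr2- Tcf7-, 106 and 126 in Havcr2+ Tcf7+, and 88.5 and 98.6 in Havcr2+ Tcf7- barcodes. The Havcr2+ Tcf7- class stood below each of the others except in the female library, where Havcr2- Tcf7- was lower still. Against Havcr2- Tcf7+ it was lower in both libraries, by 1.18 and 0.36 on the log2 scale, and the male value did not reach 2-fold. At equal depth Xcl1 was found in 13.9% of Havcr2+ Tcf7+, 12.5% of Havcr2- Tcf7+, 8.82% of Havcr2- Tcf7- and 7.87% of Havcr2+ Tcf7- barcodes, so that both Tcf7+ classes had the larger shares. Outside Cd8, Xcl1 was found in 5 of 578 Treg and 5 of 479 other Cd4 barcodes, and 1 Treg barcode held 49 of 57 UMIs.

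Ccl1 was rare and concentrated. It was found in 7.53% (6.75 to 8.37) of Cd8 barcodes, 7.08% and 8.04% in the female and male library, and 14 barcodes held 50% of its molecules. In Treg, 1 of 578 barcodes had Ccl1, a male one with 239 UMIs, and this placed Treg first by pooled CPM (53.7, with 0 for female and 97.8 for male Treg). Without that barcode no Treg held Ccl1, and Havcr2+ Tcf7- Cd8 (49.1 CPM) was first. Other Cd4 barcodes had it in 7 of 479, at 3.78 and 24.7 CPM.

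Ccl3 and Ccl4 were detected in the same Cd8 barcodes. Of 1110 barcodes with Ccl3, 80.5% (78.1 to 82.8) also had Ccl4, against 29.0% of those without, and of 1787 with Ccl4, 894 had Ccl3 against 9.01% of those without. Ifng, the T cell cytokine interferon gamma, was found in 75.9% of Ccl3 barcodes against 35.7% of the rest, and in 67.4% of Ccl4 barcodes against 30.7%. The share of Ccl3 barcodes with Ccl4 was 75.6% for female and 85.7% for male barcodes. Barcodes with Ccl3 were deeper (median 15527 against 8526 UMIs), which raises every joint share. Among barcodes of at most 20000 UMIs the shares were 78.3% against 27.8% for Ccl4 and 67.4% against 32.0% for Ifng. Ccl1 barcodes also held Ccl3 more often (59.7% against 23.8% of those without). Xcl1 went with Ccl1: 49.5% of the 315 Ccl1 barcodes had Xcl1 against 15.7% of the others, and 40.5% against 12.4% at the lower depth. Xcl1 did not go with Ccl5, which was found in 83.7% of barcodes with Xcl1 and 86.1% of those without.

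**Figure D3:**
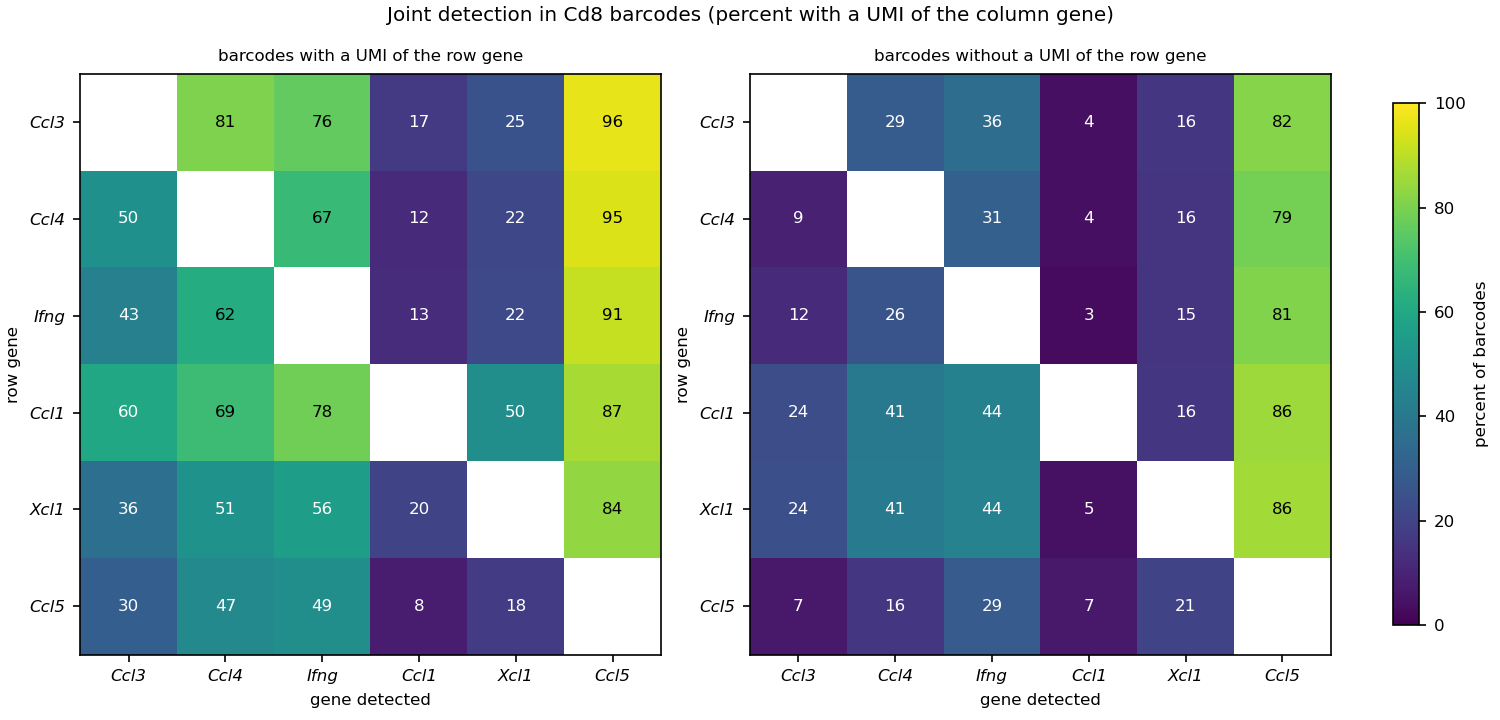
Percent of Cd8 barcodes (both libraries, 4185 in all) with a UMI of the column gene, among barcodes with a UMI of the row gene (left) and without one (right). The Ccl4 column stood at 80.5% with Ccl3 and 29.0% without, and the Xcl1 column at 49.5% with Ccl1 and 15.7% without, while the Ccl5 column was high in both panels.

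The genes most like each member across Cd8 barcodes were found from Pearson's r of log counts per 10000, centred within library, over 4185 barcodes and 9268 genes; barcodes of a library share its preparation and differ in depth, so these values describe and are not tested. Ccl3 and Ccl4 were each other's nearest gene (r = 0.63), followed by Ifng (0.52 and 0.51), and then by Havcr2 for Ccl3 (0.34) and by Nr4a1, an immediate-early gene of T cell receptor signalling, for Ccl4 (0.38). Ccl5 was most like Hcst (0.44), which encodes a signalling adaptor of activating receptors, Gzmk (0.40), a granzyme, and Nkg7 (0.37), a protein of cytotoxic granules. Xcl1 was most like Crtam (0.36), Cd160 (0.28), both receptors of cytotoxic lymphocytes, and Ccl1 (0.26). Ccl1 was most like Xcl1, Nrgn (0.26) and Ccl3 (0.22). Summed over a list of 13 genes of T cell receptor activation, Ifng among them, Cd8 barcodes with Ccl3 had 2801 CPM against 1947 without, those with Ccl4 2710 against 1829, with Ccl1 2899 against 2199, with Ccl5 2344 against 1955, and with Xcl1 2475 against 2229. The list of 5 progenitor and memory-like genes had 234 CPM in Cd8 barcodes with Ccl3 against 470 without, and 346 against 383 for Xcl1.

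Regulatory T cell barcodes differed from Cd8 in which chemokines they carried. Ccl5 was 9.03-fold and 12.5-fold higher in Cd8 than in Treg in the female and male library, Xcl1 4.35-fold and 39.0-fold (106 and 128 against 24.5 and 3.27 CPM), and Ccl3 2.58-fold and 2.34-fold (136 and 279 against 52.9 and 119 CPM). Ccl4, at 374 and 840 against 204 and 515 CPM, was 1.83-fold and 1.63-fold higher and was not called. In the other direction, Cxcl2 stood at 199 and 130 CPM in Treg against 10.1 and 30.2 in Cd8, and Cxcl10 at 34.9 and 38.9 against 9.09 and 9.62. None of these groups overlapped over libraries except for Ccl4. In all, 5 of the 7 measured members were called beside 11.3% of 8183 genes, 3 of them higher (3.42% of genes) and 2 lower (7.92%) in Cd8. All 7 measured members had a median log2 ratio of 0.60, against -0.14 over all genes measured. Transcripts of other cell types moved with this comparison. All 4 antigen presentation genes were called lower in Cd8, at 86.6 and 196 against 1047 and 1274 CPM in sum, as were Epcam and Zbtb46, while Itgax, Eomes and Col1a1 were called higher. Without T cell barcodes that held H2-Aa, all 5 members were still called. Ccl1, at 20.7 and 51.9 CPM in Cd8 against 0 and 97.8 in Treg, had opposite directions and was not called. The TMM factors of Cd8 over Treg were -0.24 and -0.21 on the log2 scale in the female and male library, so that TMM scaling moved every gene by that much towards Cd8. The 5 calls held under each of the 9 settings, except that Ccl3 had a log2 of 0.98 and lost its call without barcodes above 20000 UMIs.

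Against the other Cd4 barcodes, which were set beside the same Treg barcodes, Treg had more Cxcl2 (32.2 and 7.26 CPM in other Cd4 of the female and male library) and Cxcl10 (13.9 and 13.8), and less Ccl5. These 3 of 7 measured members were called beside 7.89% of 8142 genes, 2 of them higher (5.05% of genes) and 1 lower (2.84%). All 7 measured members had a median log2 ratio of 0.48, against 0.08 over all measured genes. All 4 antigen presentation genes (157 and 102 CPM in sum in other Cd4), Krt18, Epcam and Cd68 were called higher in Treg too. Cxcl2 and Cxcl10 were called in 7 of 9 settings and Ccl5 in 6: without barcodes that held H2-Aa the Cxcl10 call was lost, and without keratin, Lyz2 or MHC II barcodes those of Cxcl2 and Ccl5 were. Ccl3 and Ccl4 were not called: for Ccl3 the female ratio was a log2 of 5.39, from 2 UMIs in other Cd4, and the male one was -0.89.

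The Cxcl2 of Treg sat in 41 of 578 barcodes (7.09%, 5.14 to 9.50), of which 2, both female, had 100 UMIs or more. Tumour and myeloid transcripts moved with it. Keratin-type transcripts (Krt8, Krt18, Krt5 and Epcam together) were at 2469 CPM in Treg barcodes with Cxcl2 and 17.1 without, and macrophage transcripts at 663 and 20.2. These came from few barcodes, since 2 of the 41 had a Krt8, 5 a Krt18 and 1 a Lyz2 UMI, and the 5 top barcodes held 95.2% of the keratin-type and 81.2% of the macrophage UMIs of all Treg. Without barcodes holding Krt8, Krt18, Lyz2 or at least 3 H2-Aa UMIs, 34 of 539 Treg (6.31%) still had Cxcl2, at 56.5 and 124 CPM in the female and male library, against 1.23 and 10.2 in Cd8 and 32.7 and 7.28 in other Cd4. The pooled log2 ratio of Cd8 over Treg was -4.23 there and -3.12 over all barcodes, and the female Treg against other Cd4 ratio was below 2-fold. Keratin barcodes themselves held Cxcl2 in 20 of 29 (69.0%) at 679 CPM, above any other class, so they give no background for this gene. The part of free RNA was not tested. Cxcl10 was found in 47 Treg barcodes (8.13%, 6.04 to 10.7), at most 16 UMIs in 1, and 42 of 539 (7.79%) after the same exclusion. It was found in 4 of 29 keratin barcodes (13.8%) at 34.1 CPM, of which 1 barcode held 34 of 40 UMIs, and at equal depth the shares were 4.84% in Treg, 2.08% in other Cd4 and 3.20% in keratin barcodes. Keratin-type transcripts were at 1472 CPM in Treg barcodes with Cxcl10 and 184 without. These too came from few barcodes, since 1 of the 47 had a Krt8 and 4 a Krt18 UMI. The interferon-response list was at 2042 CPM in Treg barcodes with Cxcl10 and 1289 without, and 1 barcode of 578 had both Cxcl2 and Cxcl10.

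**Figure D4:**
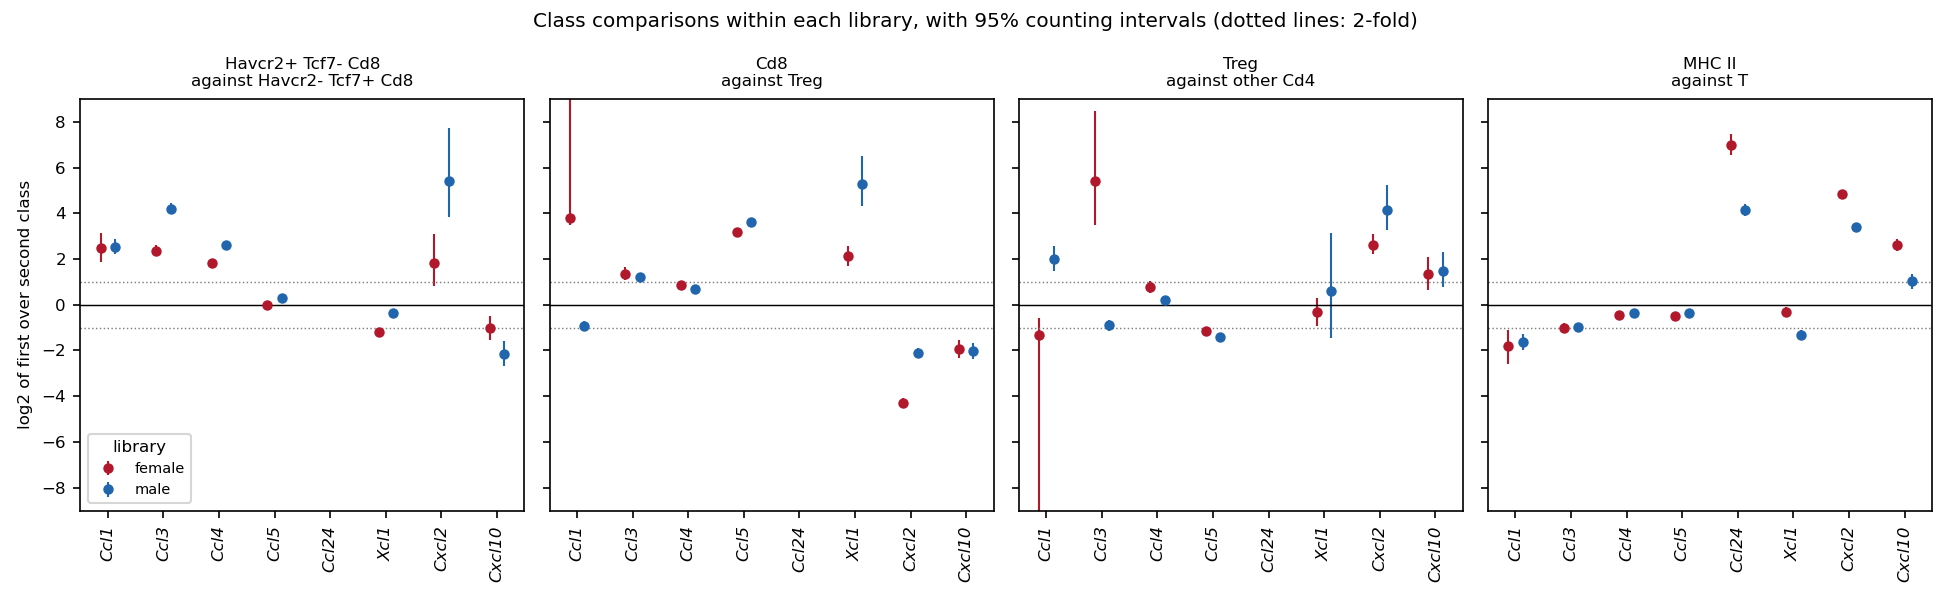
Log2 ratio of each chemokine between 2 classes, within the female (red) and the male (blue) library, for 4 comparisons, with exact 95% counting intervals; a bar that runs to the edge of the panel belongs to a class with 0 UMIs, whose point uses 3, and genes under the minimum for measurement have no point. Ccl1, Ccl3 and Ccl4 lay above 2-fold in both libraries in the first panel, and Cxcl2 and Cxcl10 below it in the second.

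In MHC II barcodes Ccl24, Cxcl2 and Cxcl10 were higher than in T cell barcodes of the 3 classes together. Ccl24 stood at 157 and 105 CPM in the female and male library against 1.23 and 5.94, Cxcl2 at 444 and 278 against 15.5 and 26.7, and Cxcl10 at 57.7 and 23.6 against 9.38 and 11.6. That is 128-fold and 17.6-fold for Ccl24, 28.7-fold and 10.4-fold for Cxcl2, and 6.15-fold and 2.03-fold for Cxcl10. Most of these T cell barcodes were Cd8, and for Cxcl10 the Treg class on its own overlapped MHC II over libraries. Treg stood at 34.9 and 38.9 CPM, the male value above that of MHC II. Without barcodes holding Krt8 or Krt18 (for Treg also Lyz2 or at least 3 H2-Aa UMIs), Cxcl10 was at 26.4 CPM in MHC II and 36.8 in Treg. Ccl1 was lower, at 5.51 and 18.0 against 19.3 and 55.6 CPM. These 4 of the 8 members were called beside 7.37% of 8252 genes, 3 of them higher (6.53% of genes) and 1 lower (0.836%). All 8 members had a median log2 ratio of -0.34, against -0.06 over all measured genes. Ccl3, Ccl4, Ccl5 and Xcl1 were lower in MHC II barcodes in both libraries, with log2 ratios from -1.32 to -0.30, and none of the 4 was called. Cxcl2 was called in all 9 settings, Ccl24 and Ccl1 in 8 and Cxcl10 in 6.

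Ccl5, Ccl3, Xcl1 and Ccl1 of MHC II barcodes sat almost all in those that held Cd3e, and Ccl4 less so. Among the 127 MHC II barcodes with Cd3e, Ccl5 was found in 90.6% and at 4109 CPM, and among the 33 without, of like depth (median 43250 against 40546 UMIs), in 30.3% and at 22.7 CPM. Ccl3 was found in 73.2% of those with Cd3e and in 2 of the 33 without, and no barcode without Cd3e had Xcl1 or Ccl1 (the exact interval reaches 10.6%). Ccl4 was found in 78.7% of those with and 7 of the 33 (21.2%) without Cd3e, at 546 and 153 CPM, and 1 barcode held 174 of the 223 UMIs of the latter. Cxcl2 was found in 55.1% of those with and 72.7% of those without Cd3e, at 213 and 880 CPM, and Cxcl10 in 33.1% and 33.3%, at 28.6 and 77.1 CPM. Ccl24, by contrast, was found in 38 of the 127 with Cd3e and 2 of the 33 without, at 153 and 31.7 CPM, and 1 of those 2 barcodes held 44 of 46 UMIs.

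Ccl24 was the rarest member. It had 1176 UMIs in 116 kept barcodes, of which 1 held 19.0% and 10 held 69.6%. MHC II barcodes held 76.2% of the UMIs, barcodes with both Foxp3 and Cd8 held 65.6%, and these classes overlapped in 72 barcodes. In Cd8 it was found in 1.22% (0.91 to 1.60), in Treg in 2 and in other Cd4 in 1 barcode, and in no keratin barcode. Its nearest genes over the 160 MHC II barcodes were Arg1 (r = 0.67), C1qb (0.65) and C1qc (0.62), an arginase and complement chains known from macrophages. Macrophage transcripts of a 7-gene list were at 439 CPM in MHC II barcodes with Ccl24 and 179 without, T cell transcripts at 3543 and 2586, and keratin-type ones at 3.92 and 1314. Cxcl2 there was most like Ier3 (0.47), an early response gene, Cxcl3 (0.46), its close relative, and Mmp14 (0.46), a membrane metalloproteinase, and Cxcl10 was most like Ldlrad4 (0.38), Irf1 (0.38), a transcription factor induced by interferon, and Themis2 (0.38). Keratin-type transcripts were at 1457 CPM in MHC II barcodes with Cxcl2 and 200 without. Without barcodes holding Krt8 or Krt18, 64 of 124 MHC II barcodes (51.6%) had Cxcl2 at 198 CPM, and 37 (29.8%) had Ccl24 at 147 CPM.

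Between the libraries, Ccl1, Ccl3 and Ccl4 were lower in the female than in the male Cd8 barcodes, and Ccl5 and Xcl1 differed by less than 1.5-fold. Ccl4 stood at 374 CPM in female and 840 in male barcodes (log2 -1.17, counting interval -1.20 to -1.14), Ccl3 at 136 and 279 (-1.03, -1.09 to -0.98) and Ccl1 at 20.7 and 51.9 (-1.32, -1.46 to -1.19). Ccl5 stood at 5083 and 4587 (0.15, 0.14 to 0.16) and Xcl1 at 106 and 128 (-0.26, -0.33 to -0.19). The intervals hold counting error only and say nothing of the spread between mice. A ratio past 1.5-fold with its interval off 1 was called, and 5 of 7 measured members were called lower in the female library, beside 1.37% of 7667 genes lower, 0.574% higher and 1.94% in either direction. The median log2 ratio of all 7 measured members was -1.17, against 0.02 over all genes measured. The other members called were Cxcl2 (10.1 and 30.2 CPM) and Ccl24 (1.94 and 10.7 CPM), both from few barcodes. Ccl24 reached the 10 CPM minimum only through the male library, where it was higher, and was called in 5 of 9 settings. Cxcl10, at 9.09 and 9.62 CPM, fell below the minimum. The Ccl1 molecules lay in few barcodes as well, with 50% of them in 14 of 4185. The Ccl1, Ccl3 and Ccl4 calls in Cd8 held under all 9 settings, with log2 values from -1.57 to -1.19, from -1.31 to -1.02 and from -1.20 to -1.05.

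The difference lay more in molecules per positive barcode than in how many were positive. Ccl4 was found in 40.5% (38.5 to 42.6) of female and 45.2% (43.0 to 47.5) of male Cd8 barcodes, at a mean of 14.0 and 23.7 UMIs, and 18 female and 46 male barcodes had 100 or more. Ccl3 was found in 25.2% (23.4 to 27.1) and 28.0% (26.1 to 30.1), at 8.22 and 12.7 UMIs, and 107 and 160 barcodes had 10 or more. Median UMIs of positive barcodes were 4 and 4 for Ccl4 and 2 and 3 for Ccl3. Female Cd8 barcodes were deeper (median 10507 against 8859.5 UMIs), and at equal depth the shares were 25.1% and 30.3% for Ccl4 and 12.2% and 16.4% for Ccl3.

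Ccl4 was lower in the female library in each of the 4 Cd8 states, and Ccl3 in 3 of them. The log2 ratio was -1.41 in Havcr2+ Tcf7-, -1.16 in Havcr2+ Tcf7+, -1.11 in Havcr2- Tcf7- and -0.60 in Havcr2- Tcf7+ barcodes for Ccl4, and -1.33, -0.80, -1.06 and 0.50 for Ccl3 in the same order. The last Ccl3 value, from 167 and 146 UMIs, was not called. The last Ccl4 value was 1.51-fold, just past the 1.5-fold line, and was called in 5 of 9 settings, against all 9 for Ccl4 in the other states. In these 4 states, 4 of 6, 5 of 8, 5 of 7 and 4 of 6 measured members were called, beside 1.91%, 3.54%, 7.32% and 4.12% of genes. All but 2 of these were lower in the female library, beside 1.3%, 2.44%, 3.98% and 1.53% of genes lower and 0.612%, 1.1%, 3.34% and 2.58% higher. The 2 called higher were Cxcl2 in Havcr2- Tcf7- and Xcl1 in Havcr2- Tcf7+ barcodes, and neither kept its direction. The Cxcl2 log2 ratio of 1.38 turned to -1.42 without barcodes above 20000 UMIs and to -1.05 without keratin, Lyz2 or MHC II barcodes, and the Xcl1 ratio of 0.66 turned to -0.083 without barcodes above 20000 UMIs. Over all barcodes of each state, Xcl1 was lower in the female library in Havcr2- Tcf7- (85.7 against 252 CPM) and higher in Havcr2- Tcf7+ barcodes (200 against 127).

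Other genes moved with this difference. In Cd8, 6 of 15 genes that rise on tissue dissociation were lower in the female library (Fos, Jun, Hspa1a, Hspa1b, Atf3 and Zfp36), none was higher, and their summed level was 7347 against 8463 CPM. Of 11 measured T cell receptor activation genes, 3 were lower (Nr4a1, Egr1 and Tnf) and 1 was higher (Irf8), with a sum of 2318 against 2277 CPM. All 4 antigen presentation genes were lower, at 86.6 against 196 CPM in sum, and Krt8 and Krt18 were higher, the keratin-type list being at 45.2 against 14.1 CPM. Of the keratin-type UMIs, 1 barcode held 928 of 1540 female and 1 held 180 of 349 male ones. Krt8 and Krt18 were lower in female Havcr2+ Tcf7- barcodes, with the list at 6.44 against 27.0 CPM. They were higher in Havcr2+ Tcf7+ and Havcr2- Tcf7- and not measured in Havcr2- Tcf7+ barcodes. The progenitor and memory-like genes Tcf7, Slamf6 and Lef1 were lower, and Havcr2+ Tcf7- barcodes were 1040 of 2245 female and 733 of 1940 male Cd8. Their part in the result was not tested.

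**Figure D5:**
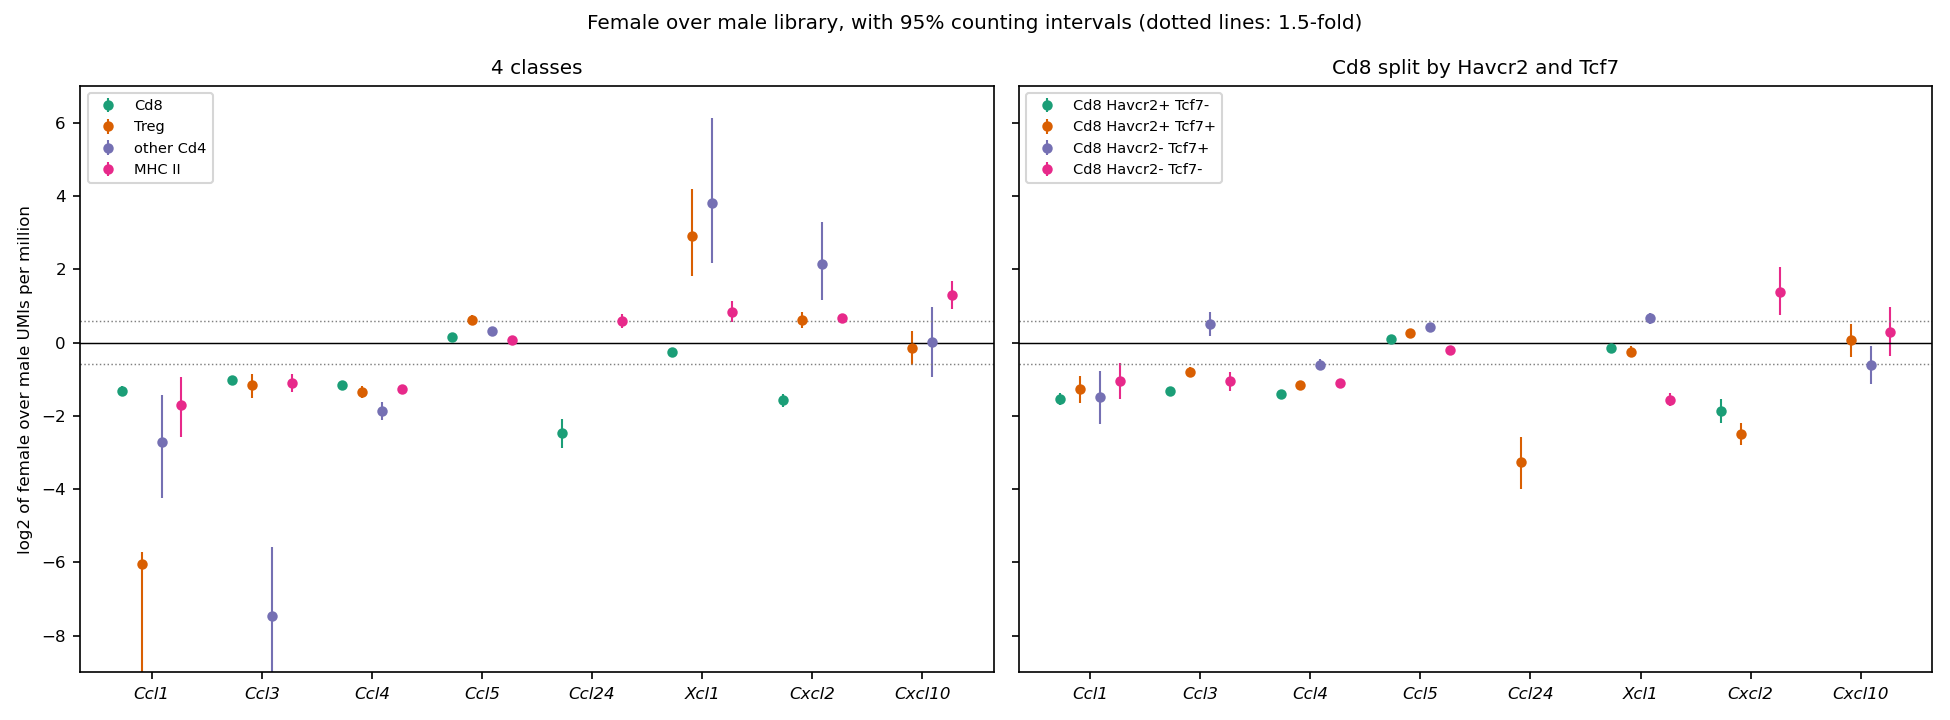
Log2 of the female over the male CPM for each chemokine in the 4 classes (left) and the 4 Cd8 states (right), with exact 95% counting intervals and dotted lines at 1.5-fold; genes under the minimum for measurement have no point, and bars that leave the panel have 2 or fewer UMIs in the female library. Ccl4 lay below 0 in all 8, and Ccl3 in all but Havcr2- Tcf7+ Cd8.

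The other classes had the same sign for Ccl3 and Ccl4. In Treg, Ccl4 stood at 204 and 515 CPM (log2 -1.34) and Ccl3 at 52.9 and 119 (-1.17) in the female and male library, in other Cd4 Ccl4 at 120 and 441 (-1.87), and in MHC II Ccl4 at 259 and 626 (-1.27) and Ccl3 at 63.3 and 136 (-1.10). In Treg, Ccl4 was found in 18.9% of female and 15.9% of male barcodes, so that the share did not follow the CPM. In Treg, 6 of 7 measured members were called beside 9.95% of 8127 genes, 3 higher (5.73% of genes) and 3 lower (4.22%) in the female library. In other Cd4, 5 of 7 were called beside 7.47% of 7925 genes, 2 higher (4.01%) and 3 lower (3.46%). In MHC II, 7 of 8 were called beside 10.3% of 8277 genes, 4 higher (5.41%) and 3 lower (4.84%). These counts lean on single barcodes: without the top barcode of each member, 2 were called in Treg and 3 in other Cd4. The Treg values of Ccl3 and Ccl4 held under all 9 settings (log2 -1.53 to -0.88 and -1.49 to -1.06). In other Cd4 the Ccl4 ratio turned to 0.32 without the 7 barcodes above 20000 UMIs, and in MHC II without Cd3e barcodes Ccl3 turned to 1.73 and Ccl4 to 1.92. These MHC II values cover only 17 female and 16 male barcodes. Ccl3 there had 12 female UMIs, 11 of them in 1 barcode, and 0 male ones, set to 3. For Ccl4, 1 barcode held 174 of the 183 female UMIs. Cxcl2 in Treg was higher in the female library (199 against 130 CPM, log2 0.61), and without barcodes holding keratin, Lyz2 or MHC II transcripts it was lower (56.5 against 124 CPM, -1.13).

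Of the 25 other chemokine ligands, 15 had at least 20 UMIs and 4 had none. The 6 with most UMIs in the classes were Cxcl3, Ccl2, Cxcl1, Ccl6, Ccl25 and Ccl9. Among the 7 classes, all but Ccl25 were highest in MHC II barcodes: Cxcl3 at 138, Ccl2 at 105, Cxcl1 at 72.4, Ccl6 at 28.3 and Ccl9 at 11.0 CPM. Keratin barcodes, which are outside these classes, stood above MHC II for Cxcl3 (476 CPM), Ccl2 (477) and Cxcl1 (272). They held Ccl6 and Ccl9 at 0.85 CPM each. Ccl25 was highest in Havcr2- Tcf7+ Cd8, at 7.53 CPM. Of 9 measured in the comparison of MHC II with T cells, 8 were higher in MHC II. None was measured in Cd8 as a whole between the libraries or in Havcr2+ Tcf7- against Havcr2- Tcf7+ Cd8 barcodes. Of the 4 Cd8 states, only Havcr2- Tcf7- had measured ones between the libraries: Cxcl3 and Cxcl1, both higher in the female library (log2 4.88 and 3.73), as Cxcl2 was there. In Cd8 against Treg 1 of 4 measured (Cxcl3) was lower in Cd8.

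Several of the chemokine receptors listed for this account were highest in Treg barcodes. Ccr8, the receptor of Ccl1, stood at 287 and 377 CPM in Treg of the female and male library, Cxcr3, the receptor of Cxcl10, at 132 and 153, Ccr4 at 51.4 and 36.4, Ccr3, the receptor of Ccl24, at 41.4 and 18.0, and Ccr1 at 25.9 over both libraries. Each of these was called lower in Cd8 than in Treg, and Ccr1, Ccr3 and Ccr8 were called higher in Treg than in other Cd4. Between Cd8 states, Cxcr3 was lower in Havcr2+ Tcf7- than in Havcr2- Tcf7+ barcodes. Cxcr2, the receptor of Cxcl2, had no UMI, and Xcr1 had 41, at most 1.01 CPM in any class. Between the libraries, none of these receptors was called in Cd8 as a whole, and Cxcr3 was lower in female Havcr2- Tcf7- barcodes (log2 -0.75). In Treg, Ccr1 was lower (-0.62) and Ccr3 higher (1.20) in the female library. Ccr8 was lower in female other Cd4 (-0.76), and Ccr1 and Cxcr3 were lower in female MHC II barcodes (-1.37 and -0.59).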

How the data were processed

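The deposited matrices hold UMI counts of genes in barcodes, 1 matrix for the male and 1 for the female library. Cell Ranger 7.0.1 wrote them, per the file headers, and the submitters' processing notes list GRCm38 and Seurat 5 without saying what each was used for. Which annotation and cell-calling settings the authors used is not given in the sources used here. Totals were 55880364 UMIs in 3658 barcodes (female) and 50946624 in 3708 (male). The 8 members, the classes and the gene lists were chosen with earlier results of these data known.

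UMIs were summed per class and library, divided by the class total and compared as ratios with exact 95% Poisson intervals, and shares carry exact Clopper-Pearson intervals; both cover counting error only. A count of 0 was set to 3 in ratios. No p-value was made, since there is 1 library per sex and cells are not replicates. Equal-depth shares are the exact mean over all draws of 2977 UMIs, the 10th percentile. The steps were tested on simulated counts. Named genes were the 8 members and the 6 other ligands with most UMIs in the classes. Chemokine receptors of a fixed list were named too (not all are reported here). Up to 3 genes per member with r of at least 0.2 were added. Genes of lists and overlapping genes were named after their values were seen. Alternatives were other barcode filters, depth limits, gates, cleaner classes, TMM scaling (edgeR 4.0.16 in R 4.3.3), no minimum level and leaving out top barcodes. Coordinates are from GENCODE M21 (99.6% of identifiers matched). Protein sequences were not used here. Python 3.11.15, numpy 2.4.6, scipy 1.17.1, pandas 2.3.3 and matplotlib 3.10.9 were used.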

Additional observations from a re-analysis of the deposited data

Results flagged for a closer look

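Some members had female over male log2 ratios past 1.5-fold in opposite directions in different classes. These differences were not tested, since each class has 1 library per sex. Ccl24 was lower in the female library in Cd8 (-2.47) and in Havcr2+ Tcf7+ Cd8 (-3.25) and higher in MHC II (0.59). The MHC II value turned to -3.76 without barcodes above 20000 UMIs (15 female and 21 male barcodes left) and to -4.21 without Cd3e barcodes (17 and 16 left). The latter came from 0 female UMIs, set to 3, and 46 male ones, 44 of them in 1 barcode. Xcl1 was higher in Treg (2.90), other Cd4 (3.80), MHC II (0.83) and Havcr2- Tcf7+ Cd8 (0.66) and lower in Havcr2- Tcf7- Cd8 (-1.56); the Treg value rests on 1 barcode with 49 UMIs, and those of other Cd4 and Havcr2- Tcf7+ Cd8 turned to -0.065 and -0.083 without barcodes above 20000 UMIs. Cxcl2 was lower in Cd8 (-1.58), Havcr2+ Tcf7- (-1.86) and Havcr2+ Tcf7+ Cd8 (-2.49) and higher in Treg (0.61), other Cd4 (2.15), MHC II (0.68) and Havcr2- Tcf7- Cd8 (1.38), and each of these 4 higher values turned below 0 under at least 1 alternative. Cxcl10 was higher in MHC II (1.29, and -0.79 without barcodes above 20000 UMIs) and lower in Havcr2- Tcf7+ Cd8 (-0.60). Ccl1 turned between libraries in the comparison of Treg with other Cd4, with a log2 of -1.34 in the female library, from 0 and 6 UMIs, and 1.99 in the male one, from 1 Treg barcode.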

How the results depend on the processing

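No paired analysis was possible because there is 1 library per sex. Over 58 calls of members, 0 were lost with a stricter barcode filter, 0 without a filter and 1 with TMM scaling, and 3 of 17 class calls were lost with stricter gates. Left-out barcodes above 20000 UMIs cost 16 of 58 calls, cleaner classes (T cells without H2-Aa, MHC II without Cd3e) 8 of 56, classes without keratin, Lyz2 or MHC II barcodes (chosen after seeing the data, as were the ratios within Cd8 states) 10 of 58, and leaving out each member's top barcode 16 of 57. Counts of members called moved without barcodes above 20000 UMIs to 3 in other Cd4 and 4 in MHC II between libraries, in cleaner classes to 4 in MHC II, without top barcodes to 2 in Treg, 3 in other Cd4 and 5 for Treg against other Cd4, and without keratin, Lyz2 or MHC II barcodes to 1 for Treg against other Cd4. Female over male log2 ratios turned without barcodes above 20000 UMIs to -1.01 for Cxcl2 in Treg, 0.32 and -0.065 for Ccl4 and Xcl1 in other Cd4, 0.21, 0.13, -3.76, -1.60 and -0.79 for Ccl1, Ccl3, Ccl24, Cxcl2 and Cxcl10 in MHC II, -0.083 for Xcl1 in Havcr2- Tcf7+ and -1.42 for Cxcl2 in Havcr2- Tcf7- Cd8. They turned in cleaner classes to 1.73, 1.92 and -4.21 for Ccl3, Ccl4 and Ccl24 in MHC II. These values cover 17 female and 16 male barcodes, and each leans on a count of 0 or on 1 barcode. Without keratin, Lyz2 or MHC II barcodes Cxcl2 turned to -1.13 in Treg, -0.045 in MHC II, 0.042 in Havcr2+ Tcf7- and -1.05 in Havcr2- Tcf7- Cd8, and without top barcodes Xcl1 turned to -0.45 in Treg, Cxcl2 to -1.20 in other Cd4 and Ccl1 to 0.076 in Havcr2+ Tcf7+ Cd8. The cause was not tested. At equal depth, 20 of 32 shares of positive barcodes left the interval of the main share. Depth limits the rare members most: Ccl24 had 11 UMIs over the Treg and 1 over the other Cd4 barcodes.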
